A study of Sus scrofa with 26 samples.

Results

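Transcripts of the mitochondrial genome were measured in pig subcutaneous adipose tissue (SCAT). The array probes were chosen by gene name and description, with no measured value in the rule: CYTB, ND1 to ND6, ATP6 and the mitochondrially encoded cytochrome c oxidase subunits I, II and III (COX1, COX2 and COX3). The family was proposed with earlier results of these data known, so its p-values are not independent evidence. The rule found 11 genes of 12837 with a symbol on the array, and 168 of the 60305 probes. A pig gene entry named 127 of them, and all 127 were well above background on all 26 arrays: 21 probes of CYTB, 20 of ND1, 13 of ND2, 3 of ND3, 11 of ND4, 3 of ND5, 2 of ND6, 25 of COX1, 5 of COX2, 14 of COX3 and 10 of ATP6. The other 41 probes matched only through a remark that a transcript cluster resembled such a gene, and are described separately. This division was made from the annotation, after the values had been seen.

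Castrated male pigs of 3 breeds were compared: Large White (LW), Creole, and F1 animals bred from both. By the study's methods the pigs came in blocks of littermates, but litters are not in the labels, so related animals could not be modelled. Each of the 26 arrays held the RNA of 1 animal, in single-colour hybridisation. The thermoneutral (TN) animals were labelled 24 °C and comprised 3 Creole, 4 F1 and 4 LW pigs. The heat stress (HS) animals were labelled 30 °C, whereas the protocol in the labels gives an exposure of 5 days to 32 °C, and comprised 5 Creole, 5 F1 and 5 LW pigs. TN pigs were slaughtered before the temperature rise and HS pigs after it, so temperature, slaughter day and age cannot be told apart. Levels are log2 of the quantile-normalized median pixel intensity, and differences are on the log2 scale. A probe's level depends on its own sequence, so a difference in level between probes is not read as one in abundance.

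On each array, between 41314 and 46185 probes were well above background, and no spot was saturated. Of all probes, 44703 were tested. The tissue label was checked against adipocyte markers: FABP4, a fatty acid carrier, had a level of 18.35 ± 0.08 (SD) in the 11 TN animals and 18.36 ± 0.08 (SD) in the 15 HS animals. PLIN1, the lipid droplet coat protein, had 15.83 ± 0.08 in TN and 15.78 ± 0.14 in HS. In bulk tissue, fewer cells of a type and less RNA per cell cannot be told apart.

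The mitochondrial genome encodes a small set of proteins, and each is a subunit of an enzyme of oxidative phosphorylation. CYTB, cytochrome b, is the only complex III subunit it encodes. The ND proteins form part of the membrane arm of complex I, COX1 to COX3 form the core of complex IV, and ATP6 lies in the proton channel of ATP synthase. The genes are transcribed as long polycistronic RNAs that are cut into single messages, and nuclear genes supply the remaining subunits. White adipocytes hold fewer mitochondria than brown adipocytes or muscle, and use them for lipid synthesis as well as for ATP.

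The 3 CYTB probes described in most detail are given here as the array file has them, 5′ to 3′. Capitals mark the stretch that A_72_P720858 and A_72_P727568 share over 57 bases, with 3 mismatches (T24C, A25T and T26A, counted from the 5′ end of A_72_P720858). Positions in a transcript are those of the array file, which give 989, 946 and 949 as starts.
CYTB A_72_P729443: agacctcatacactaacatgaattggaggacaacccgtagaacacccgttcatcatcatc
CYTB A_72_P720858: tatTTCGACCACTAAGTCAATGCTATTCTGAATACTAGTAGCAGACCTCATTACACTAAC
CYTB A_72_P727568: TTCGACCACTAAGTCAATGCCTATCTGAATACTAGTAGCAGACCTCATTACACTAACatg

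CYTB was lower in HS than in TN. The probe with the highest mean level, A_72_P729443, had a level of 18.60 ± 0.14 (SD) in the 11 TN animals and 18.40 ± 0.18 (SD) in the 15 HS animals. With breed in the model, the change was -0.185 (SE 0.049, adjusted p-value 0.0155 by limma). Of the 15 HS animals, 14 lay below the TN mean of their own breed. The call was lost with the red blood cell marker score described further on as a covariate (-0.122, adjusted p-value 0.329), with scaling to the 75th percentile (-0.218, adjusted p-value 0.0842) and without breed in the model (-0.191, adjusted p-value 0.0587). The same probe gave a change of -0.22, -0.24, -0.27, -0.04 and -0.31 within the 5 slides, each of which held both temperatures.

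The values of that probe in single animals show how far the groups overlapped. In Creole pigs it read 18.33, 18.71 and 18.48 in TN, and 18.33, 18.33, 18.35, 18.61 and 18.11 in HS. In F1 pigs it read 18.70, 18.71, 18.68 and 18.70 in TN, and 18.60, 18.51, 18.59, 18.63 and 18.58 in HS. In LW pigs it read 18.43, 18.49, 18.59 and 18.72 in TN, and 18.21, 18.30, 18.19, 18.24 and 18.49 in HS. On these quantile-normalized levels, every F1 TN animal was above every F1 HS animal, while TN and HS shared values in Creole and in LW. How many of all tested probes separate the F1 groups this way was not counted. The direction in F1 depended on the scaling. The CYTB change in F1 was -0.12 here (adjusted p-value 0.522 by limma), and 0.013 with the percentile scaling named above in place of quantile normalization. By mean, the groups ran from F1 TN (18.70) through F1 HS (18.58), LW TN (18.56), Creole TN (18.51) and Creole HS (18.35) to LW HS (18.29). Apart from F1 TN and F1 HS, all neighbours in this order overlapped. The probe also followed a division of the animals described below for other probes. In it 14 animals, 7 of the 11 TN and 7 of the 15 HS pigs, read 18.493 or more. The others read 18.493 or less. The 14 were chosen from values of member probes, so this is a description.

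The other CYTB probes moved the same way. Of the 21 CYTB probes, 18 were lower in HS and none was higher; the changes ran from -0.58 to -0.17, with a median of -0.42. The smallest adjusted p-value was that of A_72_P720858: 17.67 ± 0.07 in TN (lowest 17.58, median 17.66, highest 17.83) and 17.31 ± 0.16 in HS (lowest 17.09, median 17.25, highest 17.61). The change was -0.37 (SE 0.045, adjusted p-value 5.55e-05), and all 15 HS animals lay below the TN mean of their breed. One HS animal, a Creole pig, still reached the range of the TN animals. The 14 animals did not stand apart on this probe, reading from 17.23, while the others read up to 17.705. For A_72_P727568 the ranges were apart, 18.05 to 18.19 in TN and 17.75 to 18.04 in HS (change -0.23, SE 0.033, adjusted p-value 0.00018). It was the only such probe among the 127, and 8 of all probes tested had every HS animal below every TN animal.

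**Figure D1:**
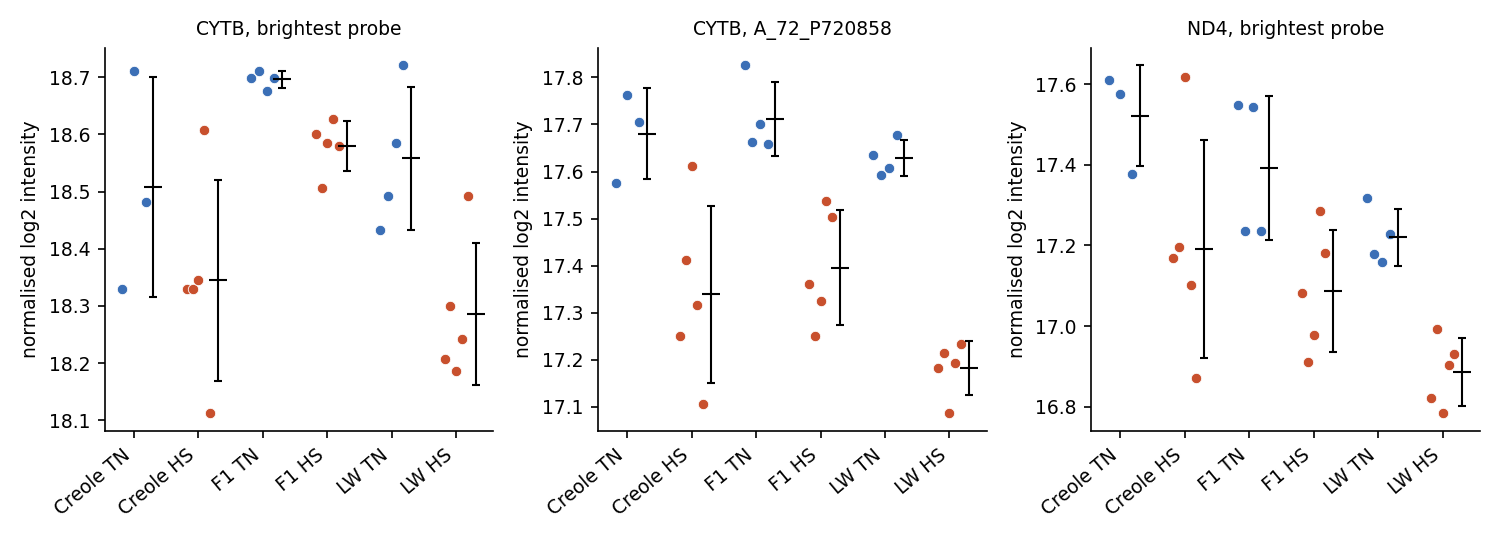
Log2 level (vertical axes) of CYTB probe A_72_P729443, CYTB probe A_72_P720858 and ND4 probe A_72_P764558 in the 6 groups of breed and temperature; points are animals and bars are mean ± SD. In F1 pigs the 4 TN points of A_72_P729443, at 18.68 to 18.71, lie above all 5 HS points, at 18.51 to 18.63. The change in F1 did not pass the test (adjusted p-value 0.522 by limma). How many of all tested probes separate the F1 groups this way was not counted. With percentile scaling in place of quantile normalization, the CYTB change in F1 pigs was 0.013.

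Across the family, 86 of the 127 probes (67.7%) were lower in HS and 2 were higher, against 7.02% lower and 5.17% higher among all probes tested. With the red blood cell marker score as a covariate 12 were lower (9.45%), against 0.823% of all probes in that fit. The median change of the 127 probes was -0.32, where that of all tested probes was 0.002. In all, 124 probes had a change below zero. Within slides the median of the 127 probes was -0.495, -0.43, -0.53, 0.003 and -0.31; the slide with the median near zero held 3 TN and 4 HS animals. Probes of 1 gene share a transcript, and often overlap in sequence, so they are not replicates of each other. The representative probes of the 11 genes correlated over the 26 arrays with r between 0.30 and 0.94 (median 0.73, 55 pairs), as a description of values that share arrays and normalization.

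The NADH dehydrogenase genes of complex I followed CYTB. ND1 was lower in 13 of 20 probes, ND2 in 5 of 13, ND3 in 3 of 3, ND4 in 10 of 11 and ND5 in 3 of 3. ND4, a proton-pumping subunit, is given animal by animal, though it is not typical of them all. The 14 animals described below stood apart on 0 of its 11 probes and on 0 of 3 of ND5. They did so on 7 of 13 of ND2, 6 of 20 of ND1 and 2 of 3 of ND3. Those animals were chosen from values of member probes, and the share over all tested probes was not counted. The counts are descriptions and do not test a difference between genes. The ND4 probe A_72_P764558 read 17.61, 17.58 and 17.38 in Creole TN, and 17.17, 17.20, 17.62, 17.10 and 16.87 in Creole HS. It read 17.55, 17.24, 17.54 and 17.24 in F1 TN, and 17.08, 16.91, 16.98, 17.29 and 17.18 in F1 HS. It read 17.32, 17.18, 17.16 and 17.23 in LW TN, and 16.82, 16.99, 16.78, 16.91 and 16.93 in LW HS. The LW groups did not overlap, and a Creole HS pig at 17.62 gave the highest reading of all. How many of all tested probes separate the LW groups was not counted. The change was -0.32 (SE 0.062, adjusted p-value 0.00151).

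The other ND genes gave changes of like sign. For the representative probe of ND2 the level was 16.99 ± 0.21 in TN and 16.70 ± 0.17 in HS (change -0.28, SE 0.055, adjusted p-value 0.00206). For ND3 it was 17.43 ± 0.24 and 17.09 ± 0.28 (change -0.33, SE 0.075, adjusted p-value 0.00585). For ND5, another proton-pumping subunit, it was 16.18 ± 0.27 and 15.90 ± 0.18 (change -0.28, SE 0.075, adjusted p-value 0.0165). TN and HS ranges overlapped for all of them. For ND1 it was 18.11 ± 0.09 and 17.99 ± 0.14 (change -0.13, SE 0.041, adjusted p-value 0.0397), a call that was lost in 11 of the 26 fits that left out 1 array.

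The 2 ND6 probes went opposite ways. ND6, a membrane subunit of complex I, is transcribed from the opposite strand to the other mitochondrial protein genes. The probe sequences are shown because they differ in base content; capitals mark G.
ND6 A_72_P442203: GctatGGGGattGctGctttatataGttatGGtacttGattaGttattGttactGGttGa
ND6 O2495: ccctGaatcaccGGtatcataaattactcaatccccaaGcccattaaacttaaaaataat

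The first holds 16 G and 5 C, and the second 4 G and 17 C. Probe O2495 had 16.15 ± 0.34 in TN and 15.62 ± 0.32 in HS, a change of -0.53 (SE 0.1, adjusted p-value 0.00136). Probe A_72_P442203 had 8.28 ± 0.34 in TN and 8.61 ± 0.33 in HS, a change of 0.34 (SE 0.098, adjusted p-value 0.0249). Within breeds it differed by 0.56 in F1 (adjusted p-value 0.0719), 0.47 in LW (adjusted p-value 0.0898) and -0.085 in Creole pigs (adjusted p-value 0.904), none of which passed, nor did the interaction (F 5.38, adjusted p-value 0.897). O2495 is among the 115 probes of the family that hold more C than G, and A_72_P442203 is not. Because ND6 comes from the opposite strand to the other genes, O2495 may not read the ND6 message. The fall of O2495 is therefore not read as a fall of that message. Which strand each probe reads was not checked against a genome here.

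The 3 core subunits of complex IV were measured next. COX1, the catalytic subunit, was lower in 20 of 25 probes; COX2, which receives electrons from cytochrome c, in 1 of 5; and COX3 in 8 of 14. The representative COX1 probe had 18.96 ± 0.11 in TN and 18.75 ± 0.12 in HS, with a change of -0.22 (SE 0.041, adjusted p-value 0.00135) and 15 of 15 HS animals below the TN mean of their breed. For COX2 the probe A_72_P442181 gave 18.57 ± 0.04 and 18.54 ± 0.05, which differed by -0.03 (SE 0.025, adjusted p-value 0.562). For COX3 the representative probe gave 18.98 ± 0.08 and 18.91 ± 0.11 (-0.07, SE 0.036, adjusted p-value 0.204). Over all probes of the gene, the median change was -0.24 for COX2 (5 probes) and -0.175 for COX3 (14 probes). One COX1 probe, A_72_P736144, was higher in HS, at 18.63 ± 0.06 in TN and 18.71 ± 0.05 in HS (change 0.08, SE 0.024, adjusted p-value 0.0345). This probe and ND6 A_72_P442203 were the 2 of the family called higher in HS. Their count was 0 with the red blood cell marker score as a covariate, and 0 to 2 when 1 array was left out. No test compared the genes with each other.

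ATP6 was lower in 4 of 10 probes. Its representative probe had 18.69 ± 0.05 in TN and 18.60 ± 0.10 in HS, which did not pass the threshold (-0.09, SE 0.032, adjusted p-value 0.0715). The median over its 10 probes was -0.12.

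Across the 127 probes, the size of the change went with the signal of the probe, though not within ND4 (Spearman correlation of change and level -0.39, 10 probes). The 38 probes with a mean level of 18 and above had a median change of -0.13, and 21 of them were lower in HS. The 26 probes between 16 and 17 had a median change of -0.42, and 25 of them were lower. Below 15 there were 15 probes with a median of -0.48, of which 2 passed the test as lower; their median residual SD was 0.57, against 0.10 for those at 18 and above. With the processed signal scaled to the 75th percentile instead, the median was -0.41 over the 127 probes and -0.175 over the 38, where that of all probes was 0.016. Whether signal strength set the size of the change was not tested.

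**Figure D2:**
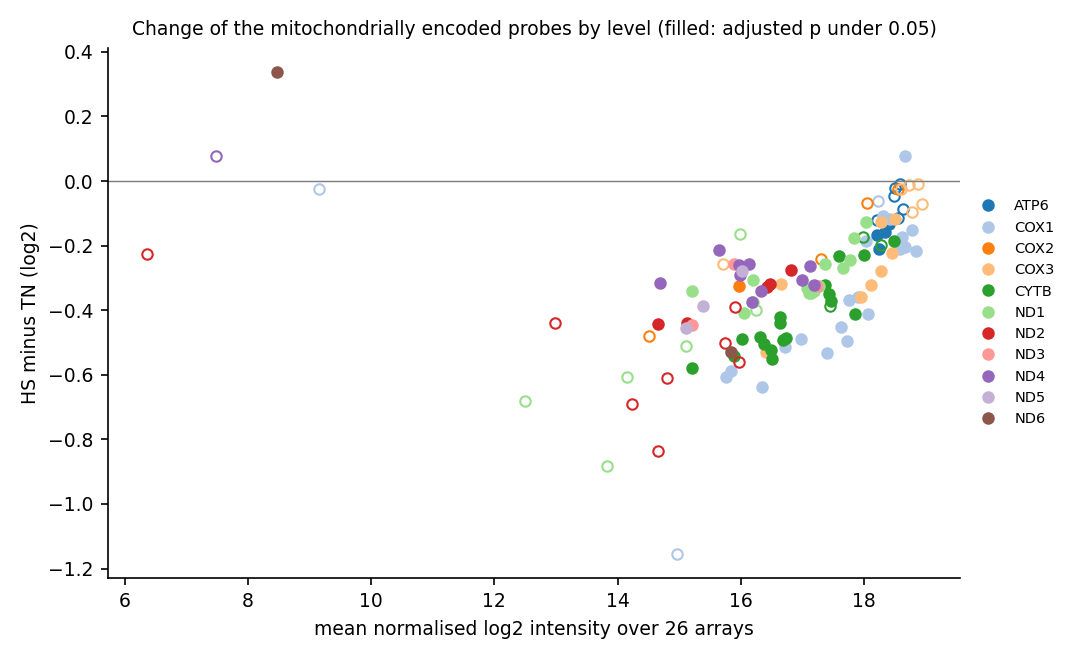
Change from TN to HS (log2, vertical axis) against mean log2 level (horizontal axis) for the 127 probes; filled points passed an adjusted p-value of 0.05. The median change is -0.13 in the 38 probes at 18 and above and -0.42 in the 26 probes between 16 and 17.

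Along the CYTB transcript the change tended to be larger in probes that start nearer its 5′ end. The probe starting at 300, A_72_P722655, had 15.55 ± 0.38 in TN and 14.96 ± 0.39 in HS, a change of -0.58 (SE 0.106, adjusted p-value 0.0011). The 4 probes starting from 1056 to 1061 had changes between -0.386 (A_72_P355338) and -0.23 (A_72_P749269), and the smallest change, -0.17, was that of A_72_P740839 at 1041 (SE 0.098, adjusted p-value 0.269). Over the 21 probes, change and start position had a Spearman correlation of 0.80, change and level one of 0.89, and level and start one of 0.78. Of the other genes with 5 or more probes at a given start, change and start gave 0.75 in COX1 (24 probes), 0.86 in COX3 (13 probes), 0.58 in ND1 (20 probes) and 0.75 in ATP6 (9 probes), but -0.08 in ND2 (12 probes) and -0.24 in ND4 (10 probes). The relation to position was therefore not shared by all genes. These probes share arrays and transcripts, so the correlations are descriptions, and position and level cannot be told apart.

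**Figure D3:**
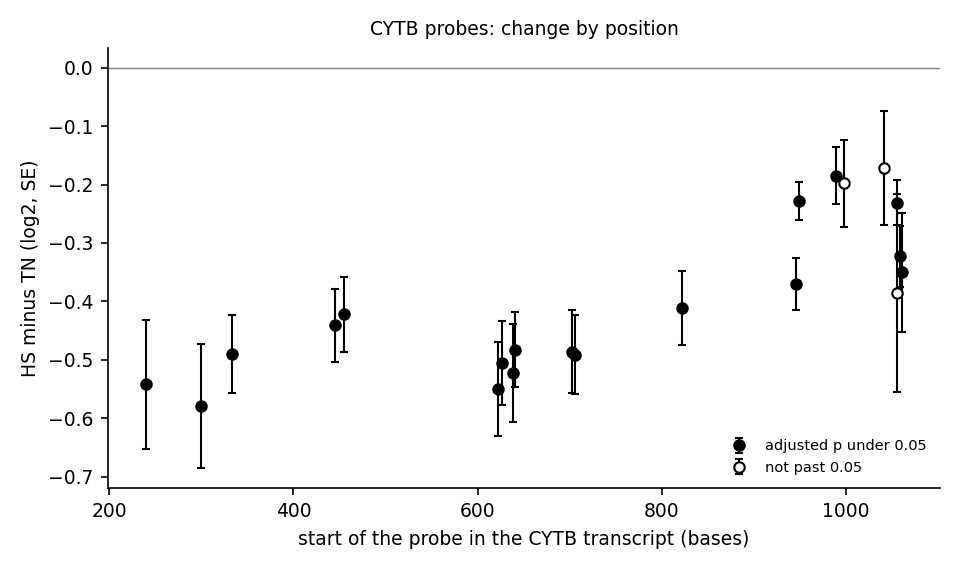
Change from TN to HS with its SE (log2, vertical axis) of the 21 CYTB probes against their start in the transcript (horizontal axis, bases). The probe at 300 shows -0.58 and that at 989 shows -0.185.

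Within breeds, the HS change was called only in LW pigs, but no difference between breeds was shown. In LW, 20 of 127 probes were lower in HS, against 1.09% of all probes. In Creole, 0 were, against 0.0626%, and in F1, 0 were, against 0.309%. With limma the count of 0 stood beside 67 probes at an unadjusted p-value under 0.05 in Creole and 51 in F1. The median changes were -0.39 in LW, -0.33 in Creole and -0.21 in F1. The test of the interaction between breed and temperature called 0 of 127 probes, against 0.00224% of all probes, and 5 had an unadjusted p-value under 0.05.

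Of the 20 probes called in LW, 13 were CYTB probes, 3 ND2, 2 COX1, 1 ATP6 and 1 COX3. For CYTB probe A_72_P729443 the change was -0.27 in LW (SE 0.084, adjusted p-value 0.0934), -0.16 in Creole (SE 0.091, adjusted p-value 0.527) and -0.12 in F1 (SE 0.084, adjusted p-value 0.522), with an interaction F of 0.91 (adjusted p-value 0.913). None of these passed the threshold. The count of 20 in LW fell to 2 without LW TN replicate 2 and was 53 without LW HS replicate 5, and it was 3 with slide as a fixed block, 0 with the red blood cell score, 52 with the skeletal muscle score, 43 with array weights and 31 with scaling to the 75th percentile.

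**Figure D4:**
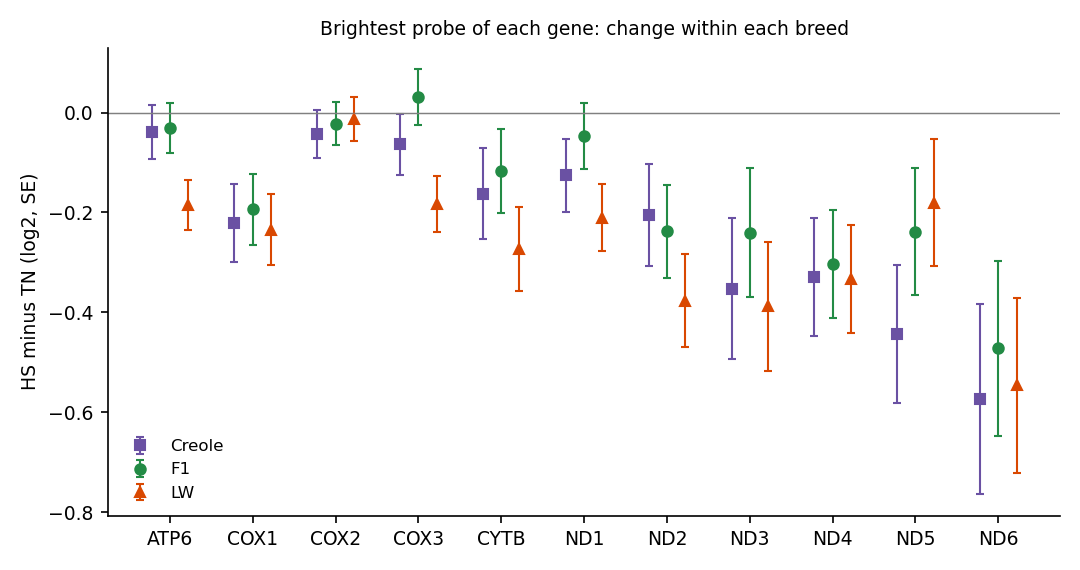
Change from TN to HS with its SE (log2) within Creole, F1 and LW pigs for the representative probe of each of the 11 genes. The ND6 probe is O2495, which may not read the ND6 message because its strand was not checked. For CYTB the values are -0.16, -0.12 and -0.27, and their error bars overlap.

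Breeds also differed with temperature in the model. In F1 pigs 68 of 127 probes (53.5%) were higher than in LW and 1 was lower, against 2.46% higher and 1.76% lower among all probes. The probes higher in F1 were 18 of 20 of ND1, 13 of 13 of ND2, 12 of 21 of CYTB, 11 of 25 of COX1, 5 of 14 of COX3, 2 each of COX2, ND3, ND4 and ND5, 1 of ND6 and none of ATP6. CYTB probe A_72_P729443 had 18.63 ± 0.07 (SD, n = 9) in F1 and 18.41 ± 0.19 (SD, n = 9) in LW, a difference of 0.23 (SE 0.059, adjusted p-value 0.0323). The 9 F1 pigs but 3 of the 9 LW pigs were among the 14 animals described below; on this probe those LW pigs read 18.59, 18.72 and 18.49, and the other LW pigs 18.19 to 18.49. The count of 68 was 10 with slide as a fixed block, and it was 28 without F1 HS replicate 4, 29 without F1 TN replicate 1 and 29 without LW TN replicate 1.

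Creole pigs were compared with both other breeds. In LW, 13 of 127 probes were lower than in Creole, or 10.2%, against 7.43% of all probes, and 7 of these were ND4 probes. The count was 6 without Creole TN replicate 2, 26 without Creole HS replicate 5 and 2 with the skeletal muscle score as a covariate. For ND4 probe A_72_P764558 the level was 17.32 ± 0.27 (SD, n = 8) in Creole and 17.04 ± 0.19 (SD, n = 9) in LW (difference -0.30, SE 0.075, adjusted p-value 0.00937). Between F1 and Creole 0 of 127 probes were higher, against 0.13% of all probes, with 67 at an unadjusted p-value under 0.05. The 3 comparisons share animals.

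Of the 127 probes, 16 had a residual SD over 0.4, a limit set after the values were seen. It was not a break: the smallest residual SD inside it was 0.457 (CYTB A_72_P355338, a span of 1.59) and the largest outside it 0.389 (ND1 A_72_P729778, a span of 1.42). They were 6 probes of ND2, 4 of ND1, 2 of COX1, 2 of COX3, 1 of COX2 and 1 of CYTB. Some have a close neighbour on the array with a narrower range, and the sequences of 3 such pairs are shown. In the COX2 pair capitals mark the single mismatch in 48 shared bases (A33T, counted from the 5′ end of A_72_P746371).
COX2 A_72_P746371: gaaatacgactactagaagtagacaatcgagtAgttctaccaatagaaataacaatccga
COX2 A_72_P751248: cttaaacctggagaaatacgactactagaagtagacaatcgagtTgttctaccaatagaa

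In the COX3 pair capitals mark the 33 bases that both probes hold without a mismatch.
COX3 A_72_P760010: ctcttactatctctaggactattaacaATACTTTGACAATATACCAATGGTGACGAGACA
COX3 A_72_P759028: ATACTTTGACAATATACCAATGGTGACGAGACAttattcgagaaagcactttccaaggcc

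In the CYTB pair, compared over the first 45 bases, capitals mark 2 mismatches (C18T and A39G, counted from the 5′ end of A_72_P355338).
CYTB A_72_P355338: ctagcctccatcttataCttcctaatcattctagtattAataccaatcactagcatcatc
CYTB A_72_P749269: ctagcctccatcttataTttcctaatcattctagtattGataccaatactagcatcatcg

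COX2 probe A_72_P746371 spanned 7.22 log2 units over the 26 animals. In Creole pigs it read 9.20, 16.40 and 13.59 in TN, and 13.04, 12.77, 9.59, 15.95 and 13.50 in HS. In LW pigs it read 13.65, 13.75, 16.19 and 16.16 in TN, and 12.52, 12.99, 13.83, 13.40 and 15.90 in HS. All 9 F1 pigs lay between 15.81 and 16.42. In all, 14 animals read above 15, another 10 read between 12.52 and 13.83, and 2 Creole pigs, 1 TN and 1 HS, read under 10. Its neighbour A_72_P751248 spanned 1.17 units, with the same 14 animals at 17.25 to 17.85 and the others at 16.68 to 17.22.

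The same animals stood apart on other genes. In 13 of the 16 probes the largest gap between ordered values separated exactly those 14 animals. They were the 9 F1 pigs, Creole TN replicate 2, Creole HS replicate 4, LW TN replicates 3 and 4, and LW HS replicate 5. The 16 probes were chosen for their spread, which such a gap widens, and the 14 animals from values of member probes. The count is therefore a description, and it was not made over all tested probes. CYTB probe A_72_P355338 read 17.90 to 18.07 in the 14 animals and at most 17.18 in the other 12, a gap of 0.72, while its neighbour A_72_P749269 spanned 0.52 units over all animals. COX3 probe A_72_P760010 read 12.001 and 12.48 in the 2 Creole pigs that were under 10 on the COX2 probe, and 15.39 or more in the other 24; its neighbour A_72_P759028 spanned 1.37 units and was lowest in the same pigs (15.92 and 16.07). The 14 animals were 7 of the 11 TN and 7 of the 15 HS pigs, and held 9 F1, 2 Creole and 3 LW pigs. The mitochondrial DNA sequence of the animals was not analysed here.

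**Figure D5:**
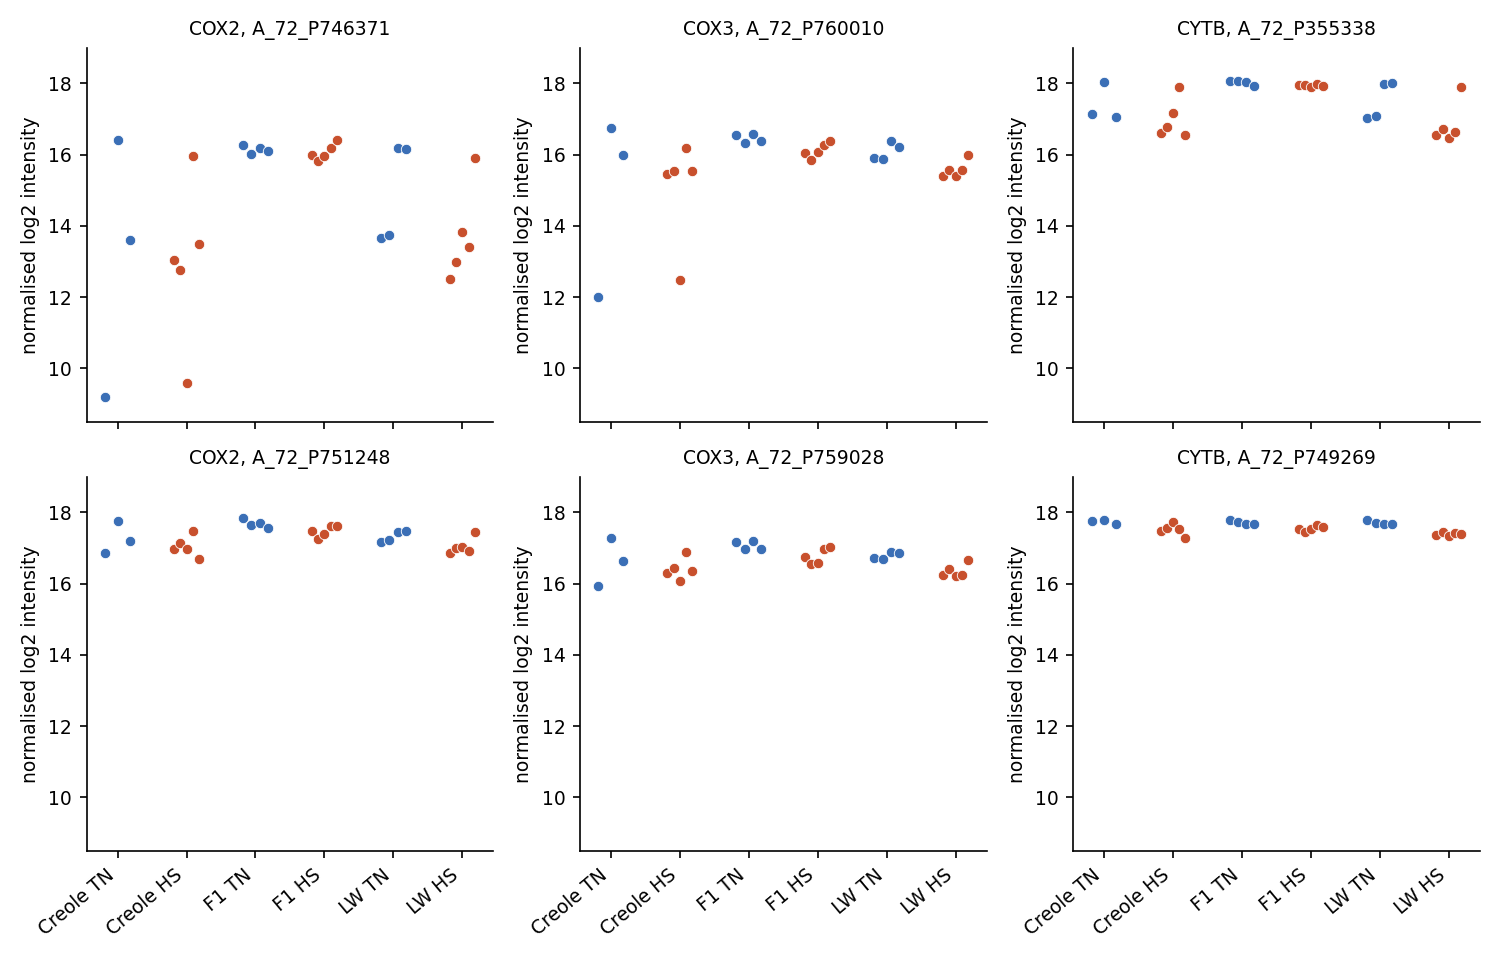
Log2 level in each of the 26 animals, by breed and temperature, of COX2, COX3 and CYTB probes with wide ranges (top) and of their neighbours on the same genes (bottom). All 9 F1 pigs lie at 15.81 to 16.42 on COX2 probe A_72_P746371, while Creole pigs spread from 9.20 to 16.40.

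The pattern reached beyond the 16 probes. On 28 of the 127 probes every one of the 14 animals read above all others, and 13 of these were outside the 16, among them CYTB A_72_P740839 (at least 18.17 against at most 17.93) and ND2 A_72_P726683 (at least 16.07 against at most 15.69). By gene they were 7 of ND2, 6 of ND1, 5 of COX1, 4 of CYTB, 2 of COX2, 2 of ND3, 1 of COX3 and 1 of ATP6. The 14 animals were chosen from values of member probes, and the share of all tested probes that set them apart was not counted. Whether the pattern is particular to this family was therefore not tested. Without the 16 probes, 84 probes were lower in HS and 2 higher, and 54 were higher in F1 than in LW. Without the 29 probes that were wide or set these animals apart, 77 of the 98 left were lower in HS and 44 were higher in F1 than in LW. Among the widest, COX1 probe A_72_P762153 differed by 2.71 between F1 and LW (SE 0.716, adjusted p-value 0.0346) and ND2 probe A_72_P719508 by 2.19 (SE 0.574, adjusted p-value 0.0331).

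One pair of COX1 probes carries opposite strands. Capitals mark the 46 bases over which the first probe is the reverse complement of the second, without a mismatch.
COX1 O13550: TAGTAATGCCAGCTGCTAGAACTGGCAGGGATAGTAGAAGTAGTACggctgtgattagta
COX1 A_72_P730653: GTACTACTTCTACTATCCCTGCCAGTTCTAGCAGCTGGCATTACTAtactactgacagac

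Probe A_72_P730653 had a mean level of 17.39 and a change in HS of -0.53 (SE 0.101, adjusted p-value 0.00134). Probe O13550 had a mean level of 9.16 and differed by -0.02 (SE 0.086, adjusted p-value 0.891). Of the 127 probes, 115 hold more C than G, and the other 12 do not.

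The 41 probes found only by a similarity remark are given only as counts. Their mean levels ran from 5.04 to 12.21 (median 6.16), 22 were above background on all arrays and 27 were tested. Of these, 2 were lower and 1 was higher in HS, with a median change of 0.05, shares near or below the 7.02% and 5.17% of all probes. No gene's value was taken from these probes.

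Nuclear genes were followed too: subunits of these enzymes and of complex II, complex III assembly factors, the electron carrier, and genes acting on mitochondrial DNA and RNA. The lists were written with earlier results known and hold 117 genes, of which 97 were measured. In HS 27 were lower (27.8%, against 7.02% of all probes), 0 were higher and 85 had a change below zero, with a median of -0.15. The share was 9 of 33 for complex I, 2 of 3 for complex II, 3 of 9 for complex III, 2 of 11 for complex IV and 7 of 15 for ATP synthase. With the red blood cell marker score described further on as a covariate, 0 of the 97 were lower, and leaving out 1 array gave 20 to 39. Each listed gene was read by its probe of highest mean level, while the 7.02% is over all tested probes, so the shares differ in unit. No test compared these lists with other genes.

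Complex III, which holds CYTB, was followed gene by gene. UQCRC1, a core protein, was at 15.07 ± 0.13 in TN and 14.71 ± 0.24 in HS (change -0.37, SE 0.069, adjusted p-value 0.0012). CYC1, cytochrome c1, was at 14.46 ± 0.22 and 14.09 ± 0.40 (change -0.39, SE 0.103, adjusted p-value 0.0153). UQCRC2, the other core protein, was at 12.99 ± 0.33 and 12.67 ± 0.38 (change -0.33, SE 0.105, adjusted p-value 0.0433). The other 6 subunits did not pass. Their differences were -0.26 for the Rieske protein UQCRFS1, -0.14 for UQCRB, -0.16 for UQCRQ, -0.07 for UQCRH, -0.07 for UQCR10 and -0.18 for UQCR11. Of the assembly factors, UQCC1 had -0.29 (adjusted p-value 0.0506), BCS1L, which inserts the Rieske protein, 0.06, and TTC19 0.02. CYCS, the electron carrier between complexes III and IV, had -0.25 (SE 0.181, adjusted p-value 0.403).

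In the other complexes, the values given are those of genes that passed the test, not of all subunits measured. In complex I, NDUFV2 fell by 0.31, NDUFB6 by 0.33 and the flavoprotein NDUFV1 by 0.34. In complex II, which has no mitochondrially encoded subunit, SDHB fell by 0.23 and SDHA by 0.245. In complex IV, COX7B fell by 0.29 (adjusted p-value 0.000684) and NDUFA4 by 0.25. In ATP synthase, the catalytic subunit ATP5F1B fell by 0.32, ATP5F1C by 0.30, ATP5PO by 0.18 and ATP5F1A by 0.34. All these passed an adjusted p-value of 0.05.

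Genes that act on mitochondrial DNA and RNA were listed apart. Of 11 measured genes of transcription and replication, 1 was lower, a share near the 7.02% of all probes: TFAM, which packages mitochondrial DNA and starts its transcription, at 10.98 ± 0.06 in TN and 10.86 ± 0.12 in HS (change -0.13, SE 0.038, adjusted p-value 0.0271). The median of that list was -0.06. Of 11 measured genes of RNA processing and stability, 3 were lower: REXO2, a mitochondrial oligoribonuclease (change -0.31, adjusted p-value 0.00965), ELAC2, which cuts tRNAs from the long transcripts (-0.40, adjusted p-value 0.0215), and SLIRP, which stabilises mitochondrial messages (-0.21, adjusted p-value 0.0399).

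Markers of other cells moved with temperature too. Of the red blood cell markers 5 of 8 were measured, and HBB (10.27 in TN, 9.41 in HS; change -0.85, adjusted p-value 0.011) and EPB42 (change -0.39, adjusted p-value 0.0294) were lower in HS. AHSP did not pass (-0.47, adjusted p-value 0.0521), and neither did ALAS2 (0.04) or SLC4A1 (0.06), so 3 of the 5 had a change below zero. The mean centred level of the 5 ran from -0.03 to 0.57 in TN and from -0.49 to 0.37 in HS; HBA1 and HBM were among those not measured. With that score as a covariate, 12 of the 127 probes were lower in HS, the median change was -0.19, CYTB probe A_72_P729443 had -0.12 (adjusted p-value 0.329) and 0 of the 97 nuclear partner genes were called lower. None of the representative probes of COX1, ND1 to ND5 or ND6 (O2495) passed in that fit either. In the same limma fit, all tested probes gave 368 lower and 160 higher.

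Of 8 adipocyte markers 1 was higher in HS, ADIPOQ, the adipokine adiponectin (change 0.16, adjusted p-value 0.0384). Of 8 fibroblast and matrix markers 5 were higher, among them COL1A1 (0.31) and DCN (0.35), 0 had a change below zero and the median was 0.32. Of 7 measured nerve and Schwann cell markers 3 were higher, among them MBP and PMP22, 0 had a change below zero and the median was 0.36. Of 15 measured skeletal muscle markers none passed the test; 0 had a change below zero, the median was 0.52, and their score ran from -2.21 to 1.25 in TN and from -1.35 to 2.73 in HS. None of 6 macrophage markers passed, with 1 below zero and a median of 0.13. Of 6 endothelial markers all 6 had a change below zero (median -0.08), and 1 of them, CDH5, was lower by the test. The part of these cells in the mitochondrial result was not tested beyond the covariate fits.

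The named genes most like CYTB were sought over the 26 arrays. Among 11001 genes, the highest Pearson correlations with probe A_72_P729443 were those of PLEKHD1 (0.90), KRT4 (0.89), CEND1 (0.83), SLCO4A1 (0.81) and VTN (0.77). With the means of the 6 groups subtracted they were KRT4 (0.85), PLEKHD1 (0.82), FAM73B (0.76), CLEC7A (0.75) and ARID3B (0.73). PLEKHD1 and KRT4 were in both sets. The mean levels of the genes in these sets ran from 5.81 to 9.35, where that of the CYTB probe was 18.48. The points share arrays and normalization, and the values are descriptions.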

How the data were processed

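SCAT RNA of 26 pigs was hybridised singly, with Cy3 label, to Agilent arrays, and the authors deposited scanner output made with Agilent Feature Extraction 10.10.1.1, per the labels. The deposited median pixel intensity was used, and the deposited log2 value table of the authors was an alternative. The flag columns deposited beside it (other values: well above background, saturated, non-uniform) served as filters. Non-uniform spots (at most 16 on an array) were set missing, arrays were quantile-normalized, log2 was taken, and probes well above background on 8 or more arrays were kept. Tests used limma 3.58.1 in R 4.3.3 (lmFit, eBayes with trend) with breed and temperature, or 6 group means, adjusted by Benjamini-Hochberg over all 44703 probes, with a threshold of 0.05. Precision rests on 3 to 5 animals per group. A gene with several probes was represented by the one with the highest mean level; partner genes were named up to the 4 smallest adjusted p-values per list, and some are not reported here. Gene members and lists were chosen with earlier results of these data known. Scripts were tested on simulated data. Pen, litter and slaughter day, which the study's methods describe, are not in the labels and were not fitted. Alternatives covered scaling, filters, slide, array weights, marker scores, model terms and leaving out each array.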

Additional observations from a re-analysis of the deposited data

Results flagged for a closer look

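Of 55 groups of 4 or 5 animals tested over the representative probes of the 11 genes, 2 held an animal far from the others, where chance gives about 1 in 20 groups. For COX3, LW HS replicate 5 was at 18.98 and the nearest other LW HS animal at 18.80, a gap of 0.80 of the group's range. For ND3, F1 HS replicate 4 was at 17.58 and the nearest other F1 HS animal at 17.365, a gap of 0.72 of the range.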

How the results depend on the processing

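With the processed signal scaled to the 75th percentile, CYTB differed between HS and TN by -0.218 (adjusted p-value 0.0842), by 0.013 in F1, and between F1 and LW by 0.293 (adjusted p-value 0.0915). There 1 member probe was higher in HS, 31 were lower in HS in LW, and 45 nuclear partner genes were lower. The count higher in HS was also 1 with no filter on dim probes, with no mean-variance trend and with slide as a fixed block. With that block, CYTB differed between F1 and LW by 0.219 (adjusted p-value 0.0774), 10 probes were higher in F1 than in LW and 3 lower in HS in LW. Array weights gave 43 probes lower in HS in LW. With the red blood cell score, CYTB had -0.122 (adjusted p-value 0.329), 12 probes were lower and 0 higher in HS, 23 lower in LW than in Creole, 0 lower in HS in LW, and 0 nuclear partner genes lower; all tested probes gave 368 lower and 160 higher. The skeletal muscle score gave 2 probes lower in LW than in Creole and 52 lower in HS in LW. Without the breed term CYTB had -0.191 (adjusted p-value 0.0587). Without the temperature term it differed by 0.001 between LW and Creole and by 0.225 between F1 and LW (adjusted p-value 0.101). The mean of all CYTB probes gave -0.484 in LW (adjusted p-value 0.0222). Of the other genes' representative probes, COX1 and ND1 lost the threshold with 75th percentile scaling. ND1 also lost it with no filter, with no trend and with the muscle score. COX1, ND1 to ND5 and ND6 (O2495) lost it with the red blood cell score. By the mean of all probes ND2 and ND6 lost it, and ATP6 and COX3 passed. The cause of each change was not tested.

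Leaving out 1 array at a time kept the CYTB change between HS and TN past the threshold in all 26 fits, from -0.21 to -0.16. The CYTB change in LW ran from -0.324 to -0.218 and passed once, without LW HS replicate 5. The CYTB difference between LW and Creole ran from -0.044 to 0.026 and changed sign without LW HS replicate 1 (0.004), LW HS replicate 3 (0.007), Creole TN replicate 2 (0.019) or Creole HS replicate 4 (0.026). That between F1 and LW ran from 0.207 to 0.253 and lost the threshold in 7 fits, without F1 TN replicate 1, F1 HS replicates 4 or 5, LW TN replicate 1, or LW HS replicates 2, 3 or 4. Counts ran from 75 to 101 probes lower in HS, 0 to 2 higher, 28 to 76 higher in F1 than in LW, 6 to 26 lower in LW than in Creole, the extremes without Creole TN replicate 2 and Creole HS replicate 5, 2 to 53 lower in HS in LW, and 20 to 39 nuclear partner genes lower in HS. The alternatives without the 16 wide probes, and without the 29 that were wide or set the same animals apart (44 probes higher in F1 than in LW), were chosen after the data were seen. The second counts 98 probes. No paired analysis was possible because replicate numbers were given in accession order. All 127 named probes were above background on every array, whereas 27 of the 41 probes with a similarity remark were tested.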
